A study of Mus musculus with 18 samples.

Results

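Interferon response and antigen presentation genes were followed in 18 libraries of mouse dorsal root ganglion (DRG), the cluster of sensory neuron cell bodies and their glia beside the spinal cord. The set held 39 genes of the 36737 in the table, matched by gene symbol. It comprised 15 genes of the type I interferon response, 11 of the type II interferon response, 8 of MHC class I presentation and 5 of MHC class II presentation. All 39 passed the filter on low counts in every comparison.

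The libraries came from L3 to L5 DRG of CD1 mice, an outbred stock, of both sexes, in 3 groups of 6 libraries (3 male and 3 female each). The sham group had sham surgery. The fracture group had a tibial fracture and received vehicle. The fracture+PDX group had the same fracture and received protectin DX (PDX), a lipid mediator made from docosahexaenoic acid. Tissue was taken in the first days after surgery from adult mice. The exact ages and the PDX dose for these 18 libraries were not given in the sources used here. The study counts 6 mice in each group, which matches the 6 libraries. Replicates are named here by sex and number. RNA was poly(A)-selected, and the libraries held 63235040 to 82824942 counts over genes.

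Interferons are secreted alarm proteins. Type I interferons signal through Ifnar1 and Ifnar2 to a complex that holds Stat2 and Irf9, binds the interferon-stimulated response element (ISRE) and drives antiviral genes such as Isg15, the Ifit and Oas genes and Mx1. Type II interferon, the product of Ifng, signals through Ifngr1 and Ifngr2, acts at the gamma-activated site (GAS) and drives Irf1, the guanylate-binding proteins (Gbp) and the immunity-related GTPases (Igtp, Irgm1, Irgm2, Iigp1). Interferons also raise antigen presentation. Nlrc5 is the transactivator of the MHC class I genes and Ciita that of the MHC class II genes. The inducers overlap, so the subgroup names follow the classical inducer and not a measurement.

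Upstream sequences were examined because the type II and the type I genes behaved differently in the library described below. RefSeq promoters on GRCm38.p6 were found for 28 of the 39 members, and the 250 bases before the start of transcription were searched on both strands. The ISRE core was taken as GAAA, any 2 bases and GAAA again, or its reverse complement, and the GAS as TTCNNNGAA. The core was found upstream of 7 of 8 type II genes with an entry, 7 of 12 type I genes, 1 of 6 class I genes (B2m) and 0 of 2 class II genes, against 3.46% of all 27025 genes of the promoter table. The GAS letters were found upstream of 5 of 8 type II genes, 3 of 12 type I genes, 1 of 6 class I genes and 0 of 2 class II genes, against 8.13% of all. The 2 motifs overlapped upstream of 1 member, Bst2. Such a match describes letters and is not a measured binding site. Shown are 3 type II genes and 3 type I genes, with the ISRE core in capitals.
Igtp: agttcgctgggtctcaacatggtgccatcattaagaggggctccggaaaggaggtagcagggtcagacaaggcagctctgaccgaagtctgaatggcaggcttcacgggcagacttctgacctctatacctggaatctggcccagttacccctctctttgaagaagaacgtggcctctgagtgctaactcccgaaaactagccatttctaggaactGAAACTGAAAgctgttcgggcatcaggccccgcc
Irgm2: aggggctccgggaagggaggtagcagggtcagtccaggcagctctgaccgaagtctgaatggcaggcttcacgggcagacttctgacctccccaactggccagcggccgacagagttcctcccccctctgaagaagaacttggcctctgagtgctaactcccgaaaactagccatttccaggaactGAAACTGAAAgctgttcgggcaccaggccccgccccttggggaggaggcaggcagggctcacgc
Gbp7: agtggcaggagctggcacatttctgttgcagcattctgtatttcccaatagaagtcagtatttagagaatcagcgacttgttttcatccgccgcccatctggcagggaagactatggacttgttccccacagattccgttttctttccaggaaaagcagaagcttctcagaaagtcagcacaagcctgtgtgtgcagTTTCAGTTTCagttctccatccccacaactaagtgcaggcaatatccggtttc
Isg15: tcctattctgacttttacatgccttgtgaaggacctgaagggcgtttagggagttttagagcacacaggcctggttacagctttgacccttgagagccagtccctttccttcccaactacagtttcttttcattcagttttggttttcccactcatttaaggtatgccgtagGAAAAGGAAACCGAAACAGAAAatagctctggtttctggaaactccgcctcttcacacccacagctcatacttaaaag
Ifit3: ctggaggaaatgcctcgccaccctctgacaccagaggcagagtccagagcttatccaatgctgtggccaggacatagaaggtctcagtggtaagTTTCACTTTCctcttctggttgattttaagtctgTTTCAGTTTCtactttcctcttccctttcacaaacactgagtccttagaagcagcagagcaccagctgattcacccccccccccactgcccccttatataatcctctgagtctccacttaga
Rsad2: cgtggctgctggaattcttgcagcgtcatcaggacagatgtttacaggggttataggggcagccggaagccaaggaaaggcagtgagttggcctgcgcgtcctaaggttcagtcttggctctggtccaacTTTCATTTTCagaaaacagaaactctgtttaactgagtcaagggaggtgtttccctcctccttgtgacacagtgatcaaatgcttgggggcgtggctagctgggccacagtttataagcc
The windows lie at chr11:58199306-58199555 (Igtp, plus strand), chr11:58214727-58214976 (Irgm2, plus strand), chr3:142530086-142530335 (Gbp7, plus strand), chr4:156200819-156201068 (Isg15, minus strand), chr19:34583279-34583528 (Ifit3, plus strand) and chr12:26456453-26456702 (Rsad2, minus strand). The core nearest to the start began 34 bases before it in Igtp, 64 in Irgm2, 53 in Gbp7, 66 in Isg15, 122 in Ifit3 and 120 in Rsad2. The genes shown were taken from those with the core, so both kinds carry it here. The shares given above differed between the kinds, and the difference was not tested. In the deposited gene models Irgm2 spans chr11:58199618-58222782 and overlaps Igtp at chr11:58199556-58207591 on the same strand, so reads in the shared stretch cannot be assigned to either gene from the table. The Irgm2 window shown lies inside that Irgm2 model.

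Levels per transcript length, as the deposited FPKM (fragments scaled to transcript length and library size), spanned a wide range. B2m, the light chain of every class I molecule, stood highest at 151 ± 37.7 FPKM (mean ± SD, n = 18), followed by the class I heavy chain H2-D1 at 107 ± 41.0 FPKM. Their ranges over the libraries overlapped. The lowest class I member was Nlrc5, at 0.352 ± 0.296 FPKM. In the class II subgroup the invariant chain Cd74, which guards the peptide groove, was highest at 41.5 ± 10.2 FPKM and Ciita lowest at 0.183 ± 0.0770 FPKM. Bst2, which tethers budding virus, led the type I genes at 11.4 ± 2.73 FPKM, and Ifi44 was lowest at 0.111 ± 0.0389 FPKM. Igtp led the type II genes at 6.78 ± 8.29 FPKM and Gbp6 was lowest at 0.516 ± 0.707 FPKM, and in both the SD exceeded the mean. No member was listed at 0 in any library. In bulk tissue such as this, fewer cells of a type and less RNA per cell cannot be told apart.

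Whether fracture altered these genes was asked first, by edgeR's quasi-likelihood test with sex in the model and Benjamini-Hochberg adjustment over all genes tested. Between fracture and sham 603 of 20659 genes passed an adjusted p of 0.05, which is 2.92%, and 0 of 39 members did. At an unadjusted p under 0.05 the counts were 4 of 39 members and 18.5% of all genes. DESeq2 called 1 member, Bst2. The median log2 fold changes were 0.04 for type I, -0.01 for type II, -0.02 for class I and -0.05 for class II genes, beside 0.00207 over all genes.

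Among type I genes Bst2 had the smallest p. Its level was 10.6, 12.7 and 14.3 CPM (counts scaled to library size; lowest, median and highest of 6) in sham and 7.97, 9.94 and 12.3 CPM in fracture. The groups overlapped, with fracture female-1 the highest of the fracture libraries. The log2 fold change was -0.30 ± 0.09 (SE; adjusted p = 0.101 by edgeR and 0.0336 by DESeq2). Oasl2, of the oligoadenylate synthetase family that senses double-stranded RNA, went from 26.0, 30.8 and 35.4 CPM in sham to 29.3, 35.8 and 40.4 CPM in fracture, again with overlap (log2 fold change 0.20 ± 0.08, adjusted p = 0.214 by edgeR).

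The type II genes with the smallest p were Gbp3 and Iigp1, GTPases that act on membranes around microbes. Gbp3 stood at 6.20, 8.17 and 9.61 CPM in sham and 5.5, 7.39 and 8.84 CPM in fracture (log2 fold change -0.17 ± 0.13, adjusted p = 0.536 by edgeR). Iigp1 stood at 2.40, 2.90 and 3.52 CPM in sham and 2.79, 2.90 and 7.10 CPM in fracture (0.28 ± 0.22, adjusted p = 0.541 by edgeR). The medians of Iigp1 were alike, and fracture female-1 alone lay above all sham libraries by a wide gap. Without that library the estimate of Iigp1 was 0.00366, and that of Gbp3 ran from -0.25 without it to -0.10 without sham female-1.

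In the class I subgroup Nlrc5 stood at 1.85, 2.21 and 3.11 CPM in sham and 2.19, 2.83 and 3.91 CPM in fracture (log2 fold change 0.35 ± 0.15, adjusted p = 0.230 by edgeR). B2m stood at 130, 139 and 162 CPM in sham and 103, 127 and 150 CPM in fracture (-0.20 ± 0.09, adjusted p = 0.263 by edgeR). Transactivator and light chain thus had estimates of opposite sign, and neither passed. Of the class II genes, Cd74 stood at 61.8, 72.5 and 95.6 CPM in sham and 58.9, 64.5 and 99.4 CPM in fracture (-0.12 ± 0.10, adjusted p = 0.581 by edgeR). The estimate of Cd74 ran from -0.22 without fracture female-1 (adjusted p = 0.0923 by edgeR) to -0.0714 without fracture female-2. H2-Eb1, a class II beta chain, stood at 1.60, 8.30 and 11.2 CPM in sham and 2.50, 12.1 and 17.01 CPM in fracture (0.58 ± 0.51, adjusted p = 0.621 by edgeR), with a spread within each group larger than the gap between them.

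Between fracture+PDX and fracture 0 of 20562 genes passed an adjusted p of 0.05 by edgeR, a background of 0%, and 0 of 39 members passed. DESeq2 called 21 genes, of which 0 were members, and gave no adjusted p for Igtp, Irgm2 and Gbp6. At an unadjusted p under 0.05 edgeR counted 0 of 39 members and 5.41% of all genes. This comparison shares the fracture libraries with the comparison above. The estimates nevertheless leaned one way in 3 subgroups. The median log2 fold change was 0.77 for type II genes (11 of 11 estimates above 0), 0.39 for class I genes (8 of 8) and 0.27 for class II genes (5 of 5), but 0.06 for type I genes (11 of 15), beside -4.47e-05 over all genes.

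**Figure D1:**
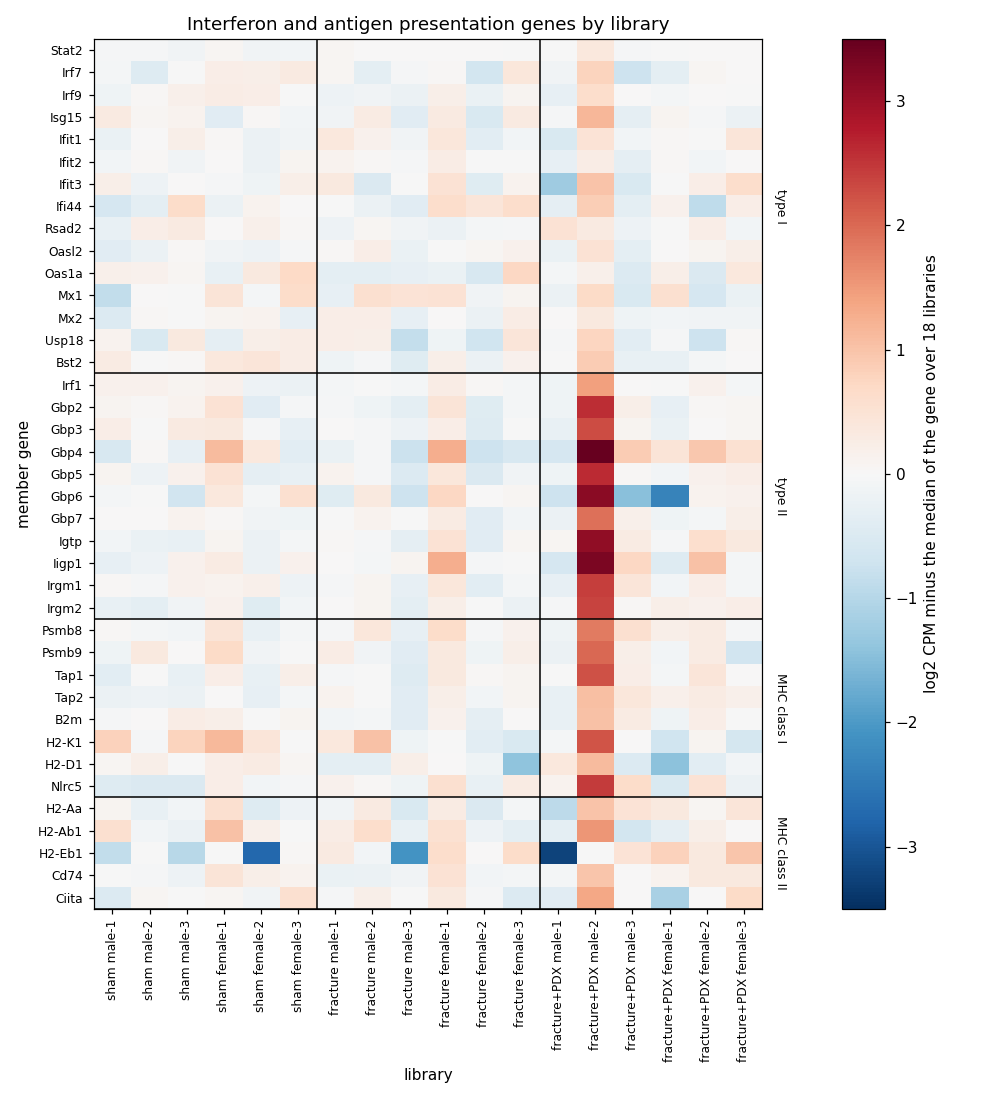
Heat map of the 39 members (rows, by subgroup) in the 18 libraries (columns, by group), coloured by log2 CPM minus the gene's median over the 18 libraries. The column of fracture+PDX male-2 is red through the type II and class I rows, where all 19 members had their highest level.

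A single library carried most of this lean. Fracture+PDX male-2 was the highest of 18 libraries for 36 of 39 members, where it was the highest for 5.89% of all genes. It was highest for 13 of 15 type I, 11 of 11 type II, 8 of 8 class I and 4 of 5 class II members. The 3 exceptions were Rsad2, Oas1a and H2-Eb1. It exceeded every other library by more than 2-fold for 44 of 21340 genes (0.206%), of which 16 were members and 11 more were other genes of the interferon and antigen presentation pathways. In none of the other 17 libraries did any member stand more than 2-fold above the rest.

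The type II genes stood out most, all 11 of them by more than 2-fold. Igtp was 90.7 CPM in fracture+PDX male-2 and 8.02 to 15.7 CPM in the other 17 libraries. Gbp4 was 46.5 CPM against 2.46 to 10.01 CPM, and Gbp6 was 22.1 CPM against 0.471 to 4.08 CPM. Irf1, the transcription factor upstream of several of the others, stood least apart at 43.5 CPM against 13.8 to 19.0 CPM. Relative to the median of the other 17 libraries the 11 genes were 2.75-fold to 11.7-fold higher, with a median of 6.16-fold.

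Class I genes followed, with 5 of 8 members more than 2-fold above every other library. Nlrc5 was 14.4 CPM in fracture+PDX male-2 and 1.80 to 4.11 CPM elsewhere. Tap1, a subunit of the peptide transporter into the endoplasmic reticulum, was 50.002 CPM against 7.90 to 14.3 CPM, and Psmb9, an immunoproteasome subunit, was 17.6 CPM against 2.73 to 6.91 CPM. The heavy chain H2-K1 was 134 CPM against 18 to 63.8 CPM. H2-D1, Tap2 and B2m were also highest there, by 1.67-fold, 1.59-fold and 1.67-fold over the next library.

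Class II and type I genes stood less far apart. Ciita was 4.64 CPM in fracture+PDX male-2 and 0.807 to 2.85 CPM elsewhere, and Cd74 was 136 CPM against 58.9 to 99.4 CPM. H2-Eb1 was 10.7 CPM there, within the 1.12 to 21.2 CPM of the others. Isg15, a ubiquitin-like antiviral protein, was the type I gene that stood farthest above the next library, at 7.65 CPM against 2.34 to 4.28 CPM. Rsad2, the antiviral enzyme viperin, was 6.16 CPM against 4.12 to 6.96 CPM, and Oas1a was 2.04 CPM against 1.20 to 2.98 CPM, so neither left the range. The median ratio to the median of the other 17 libraries was 1.53-fold for type I, 3.88-fold for class I and 2.10-fold for class II members.

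The ratios were also set beside the upstream letters. The 7 type I genes with the core were 1.19-fold to 2.31-fold above the median of the other 17 libraries, and the 7 type II genes with the core were 3.82-fold to 8.86-fold above it. The 5 class I genes without the core were 2.18-fold to 4.73-fold above it, and the class I gene with it, B2m, was 2.03-fold above it. The 5 type I genes without the core were 1.21-fold to 1.86-fold above it, and the type II gene without it, Irf1, was 2.75-fold above it. Within type II the gene without the core thus stood lowest, while class I genes without it stood above every type I gene without it. These ratios come from 1 library and carry no test.

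**Figure D2:**
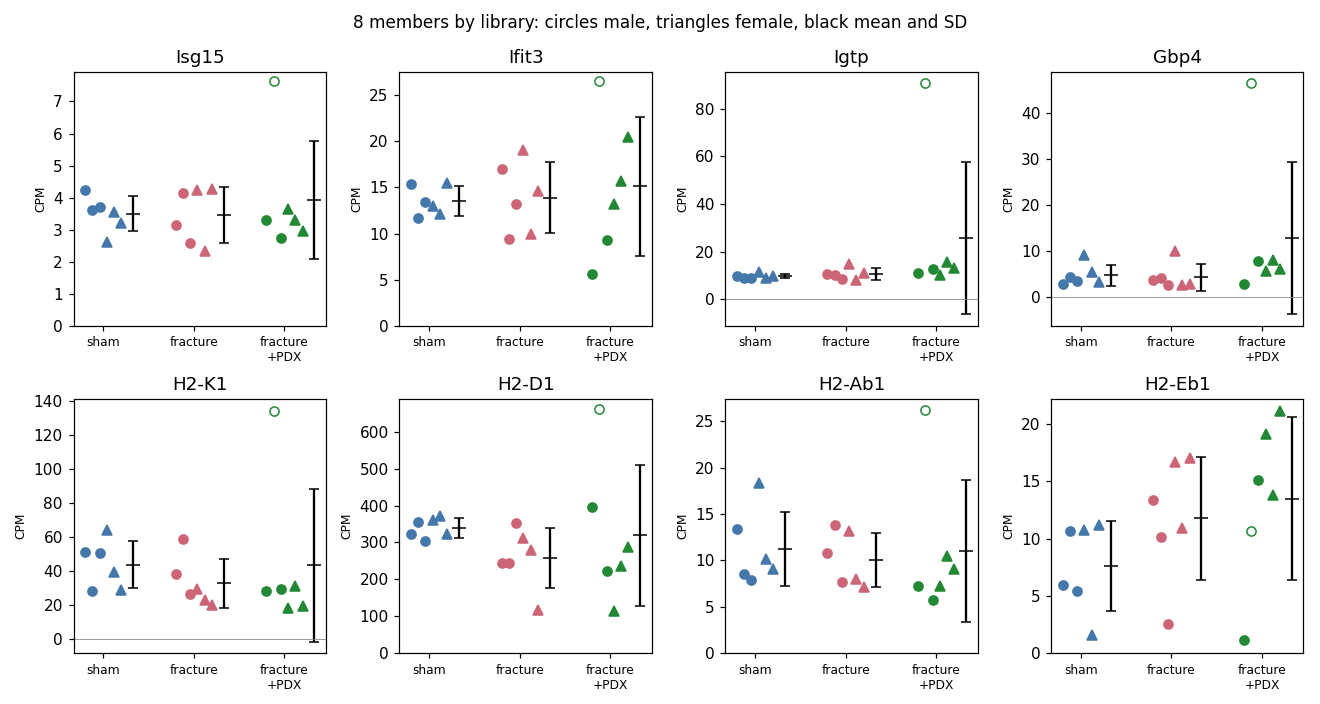
CPM of 8 members in each library by group (circles male, triangles female, open circle fracture+PDX male-2), with the group mean and SD (n = 6) in black. The open circle lies far above the other 17 libraries for Igtp (90.7 CPM) and Gbp4 (46.5 CPM), and within their range for H2-Eb1 (10.7 CPM).

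How far 1 library made the group mean was measured as the share of the group's summed CPM held by its highest library, where 6 equal libraries would each hold 16.7%. In sham the share had a median over the 39 members of 20.3% and ran from 18.1% to 32.0%. In fracture it had a median of 21.7% and ran from 17.3% to 39.6%. In fracture+PDX it had a median of 32.4% and ran from 20.6% to 72.7%, with medians of 24.2% for type I, 54.2% for type II, 41.9% for class I and 26.5% for class II members. For the type II genes the group mean was thus 1.82-fold (median) the mean of its other 5 libraries, against 1.04-fold in sham and 1.08-fold in fracture.

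The largest shares in fracture+PDX belonged to Gbp6 (72.7%), Iigp1 (62.1%) and Gbp4 (60.7%). The mean of Gbp6 in that group was 5.07 ± 8.40 CPM (SD, n = 6), and that of the 5 libraries without male-2 was 1.66 CPM. That of Iigp1 was 7.69 ± 10.4 CPM, and 3.5 CPM without male-2. That of Gbp4 was 12.8 ± 16.6 CPM, and 6.02 CPM without male-2. Each SD was larger than its mean.

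The other 2 groups had milder cases. In fracture, female-1 held 39.6% of the sum of Gbp4 and 32.9% of that of Iigp1, and male-2 held 30.2% of that of H2-K1. In sham, female-1 held 32.0% of the sum of Gbp4, 27.3% of that of H2-Ab1 and 25.0% of that of H2-Aa, the 2 chains of the I-A class II molecule. Sham female-1 was the highest sham library for 18 of 39 members and fracture female-1 the highest fracture library for 24 of 39. Gbp4 was 8.97 CPM in the former and 10.01 CPM in the latter, well under the 46.5 CPM of fracture+PDX male-2.

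**Figure D3:**
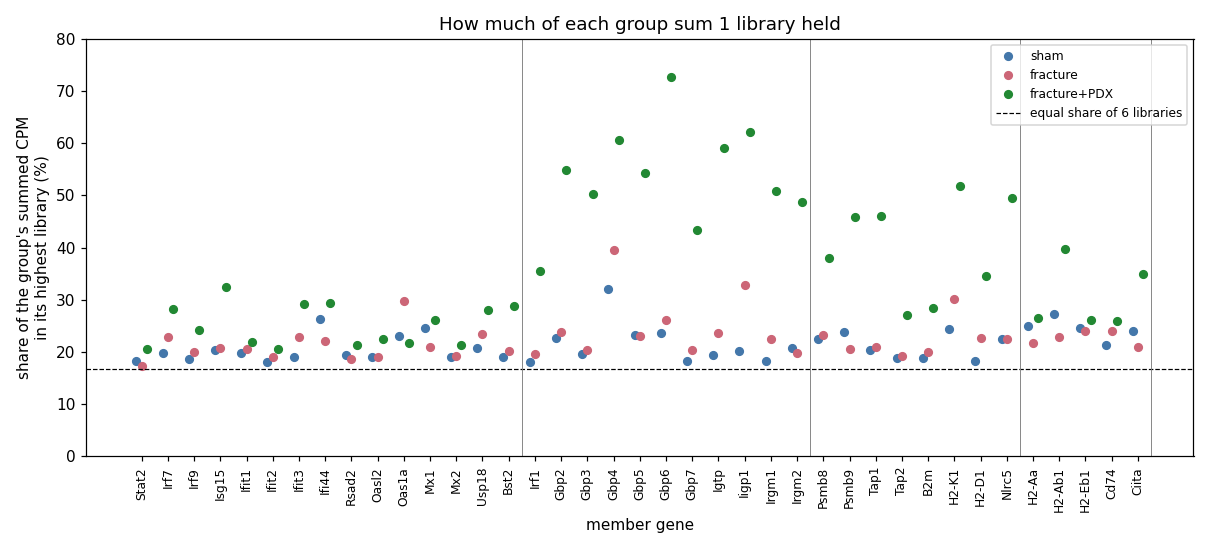
Share of each group's summed CPM held by its highest library (y axis, percent) for each of the 39 members (x axis, by subgroup), with the equal share of 16.7% dashed. In fracture+PDX the type II members lie between 35.6% and 72.7%, and in the 2 other groups no member exceeds 39.6%.

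A score per library gave the same picture by subgroup. It was the mean over a subgroup's members of the log2 CPM minus the gene's mean over 18 libraries. The type II score of fracture+PDX male-2 was 2.47, and those of the other 17 libraries ran from -0.45 (fracture male-3) to 0.41 (fracture female-1). The group mean was 0.30 ± 1.09 (SD, n = 6) in fracture+PDX and -0.13 ± 0.27 (SD, n = 5) without male-2, beside -0.14 ± 0.17 in sham and -0.17 ± 0.31 in fracture. For class I the mean was 0.17 ± 0.75, and -0.12 ± 0.24 without male-2. For class II it was 0.12 ± 0.65, and -0.05 ± 0.56 without it. For type I it was 0.00 ± 0.33, and -0.12 ± 0.16 without it.

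**Figure D4:**
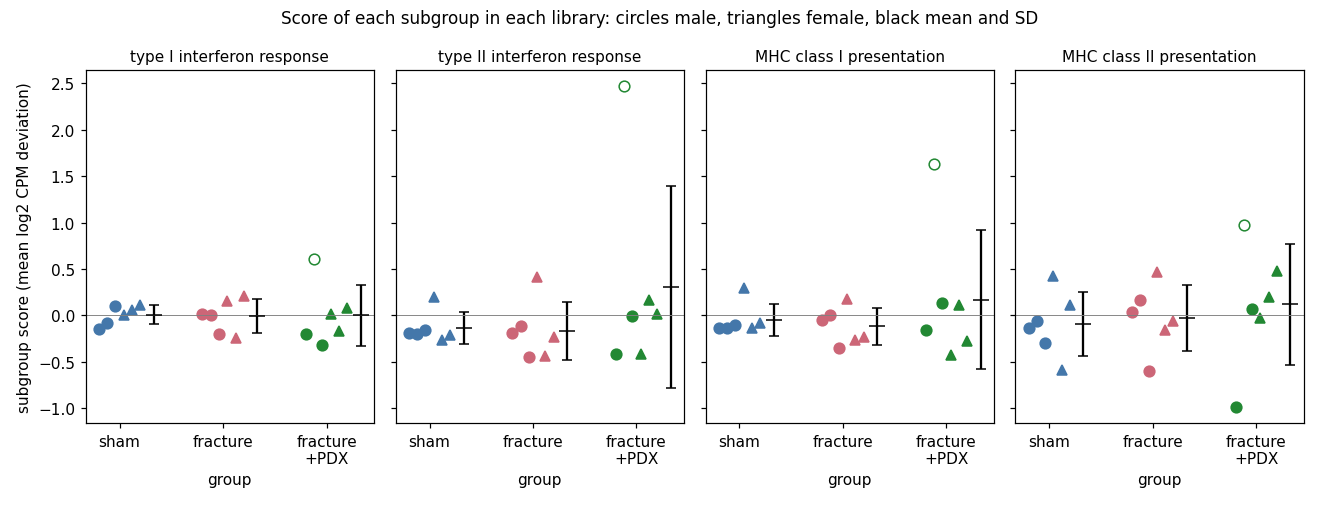
Subgroup score (mean log2 CPM deviation of its members from their means over 18 libraries) in each library by group (circles male, triangles female, open circle fracture+PDX male-2), with the group mean and SD (n = 6) in black. The open circle reaches 2.47 for type II and 1.63 for class I, and the other libraries stay between -0.45 and 0.41 for type II.

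Refitting the comparison of fracture+PDX with fracture on the 11 libraries without male-2 removed the lean of type II and class I genes. It reduced that of class II genes. The median log2 fold change was then 0.06 for type II, 0.03 for class I, 0.12 for class II and -0.12 for type I genes, and 18 of 39 estimates lay above 0 in place of 35. Again 0 members passed. Igtp went from a log2 fold change of 1.09 ± 0.60 to 0.25 ± 0.15, and Gbp4 from 1.44 ± 0.77 to 0.50 ± 0.41 (SE). Gbp6 went from 0.67 ± 0.93 to -0.72 ± 0.41, Iigp1 from 0.89 ± 0.75 to -0.04 ± 0.36, H2-K1 from 0.29 ± 0.43 to -0.27 ± 0.24 and H2-Ab1 from 0.11 ± 0.37 to -0.35 ± 0.22. These last 4 changed sign, and none of the 12 values passed its test.

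**Figure D5:**
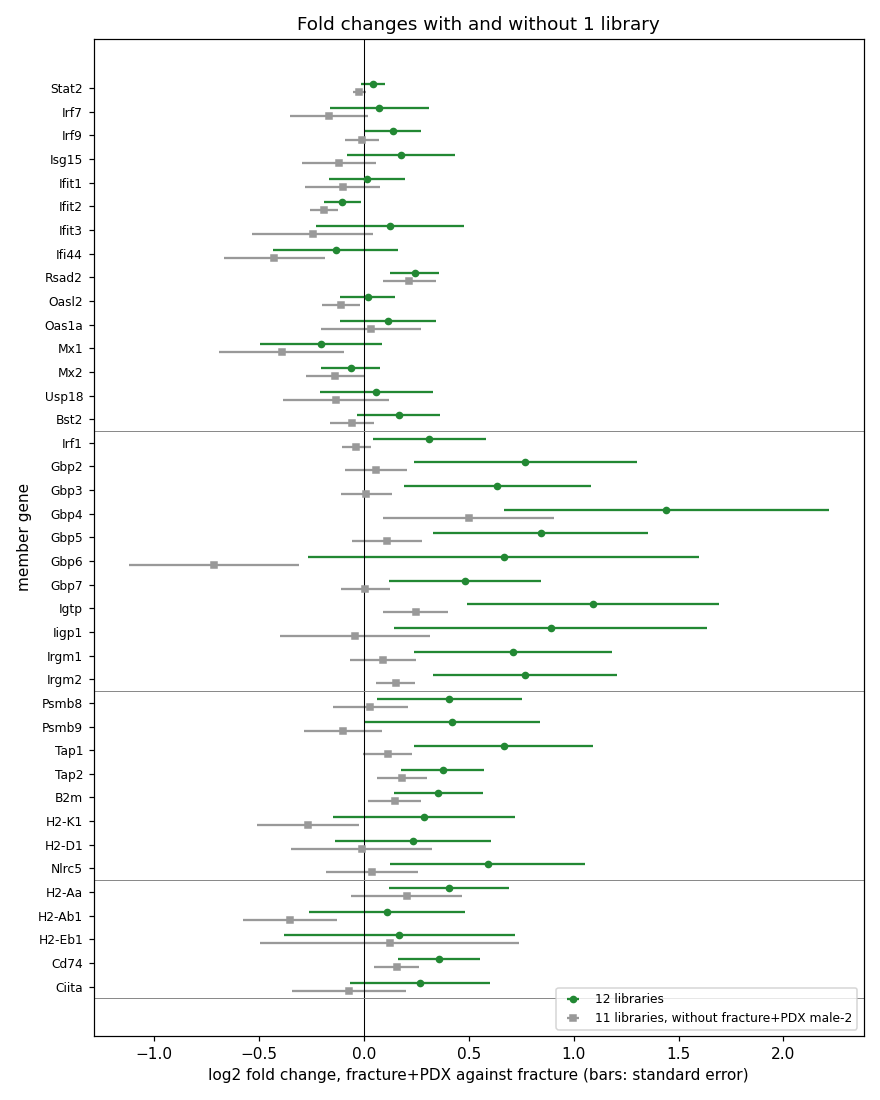
Log2 fold change between fracture+PDX and fracture (x axis; bars are standard errors) of the 39 members with all 12 libraries (green circles) and with the 11 that leave out fracture+PDX male-2 (grey squares). The green circles of the type II genes lie at 0.31 to 1.44 and the grey squares between -0.72 and 0.50.

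The members with the smallest p in this comparison were as follows. Rsad2 stood at 4.25, 4.59 and 5.17 CPM in fracture and 4.33, 5.32 and 6.96 CPM in fracture+PDX, with fracture+PDX male-1 the highest (log2 fold change 0.24 ± 0.12, adjusted p = 0.917 by edgeR). Ifit2, which binds viral RNA, stood at 24.6, 25.2 and 30.0 CPM and at 20.3, 24.4 and 30.0 CPM (-0.10 ± 0.09, adjusted p = 0.958 by edgeR). Both pairs of groups overlapped, and for Rsad2 the highest library was not male-2. Without male-2 the estimates were 0.22 ± 0.13 for Rsad2 and -0.19 ± 0.07 for Ifit2.

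Gbp4 stood at 2.46, 3.17 and 10.01 CPM in fracture and 2.76, 6.85 and 46.5 CPM in fracture+PDX, and Igtp at 8.02, 10.4 and 15 CPM and 10.2, 13.0 and 90.7 CPM. The adjusted p was 0.917 for both by edgeR. Tap2, the partner of Tap1, stood at 21.4, 29.0 and 32.3 CPM and 23.8, 33.4 and 58.9 CPM (0.37 ± 0.20, adjusted p = 0.917 by edgeR). B2m stood at 103, 127 and 150 CPM and 113, 146 and 273 CPM (0.35 ± 0.21, adjusted p = 0.917 by edgeR). In each of these 4 genes the fracture+PDX median lay above the fracture median, and the ranges overlapped. Without male-2 the estimates were 0.18 ± 0.12 for Tap2 and 0.15 ± 0.13 for B2m.

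Of the class II genes, Cd74 stood at 58.9, 64.5 and 99.4 CPM in fracture and 66.6, 81.5 and 136 CPM in fracture+PDX (0.36 ± 0.20, adjusted p = 0.917 by edgeR). H2-Aa stood at 7.27, 9.80 and 13.0 CPM and 5.55, 13.8 and 21.0 CPM (0.41 ± 0.29, adjusted p = 0.935 by edgeR). Without male-2 these estimates were 0.15 ± 0.11 for Cd74 and 0.20 ± 0.26 for H2-Aa. For H2-Aa, fracture+PDX held both the lowest library (male-1) and the highest (male-2).

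Against sham, fracture+PDX differed in 925 of 20574 genes (4.5%), and 0 of 39 members passed. At an unadjusted p under 0.05 the counts were 1 of 39 members and 18% of all genes. This comparison shares libraries with both others. The median log2 fold changes were 0.06 for type I, 0.67 for type II, 0.42 for class I and 0.25 for class II genes, beside -0.00128 over all genes. Without fracture+PDX male-2 they were -0.17, 0.02, 0.07 and 0.03, and the counts were 0 of 39 past the adjusted p and 7 of 39 at an unadjusted p under 0.05, beside 3412 of all 20836 genes of that fit.

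Tap2 had the smallest p, at 22.9, 24.8 and 28.7 CPM in sham and 23.8, 33.4 and 58.9 CPM in fracture+PDX (log2 fold change 0.52 ± 0.18, adjusted p = 0.153 by edgeR). It was the only member called when a single library was left out, namely fracture+PDX male-1 (0.62, adjusted p = 0.0418 by edgeR), and without male-2 it was 0.32 ± 0.10 (adjusted p = 0.0981 by edgeR). Igtp stood at 8.73, 9.39 and 11.2 CPM in sham and 10.2, 13.0 and 90.7 CPM in fracture+PDX (1.23 ± 0.58, adjusted p = 0.309 by edgeR). Without male-2 its estimate was 0.38 ± 0.11 (adjusted p = 0.0761 by edgeR). Irgm2 stood at 9.61, 11.3 and 14.2 CPM and 12.6, 14.5 and 66.5 CPM (0.90 ± 0.44, adjusted p = 0.324 by edgeR), and without male-2 at a log2 fold change of 0.28 ± 0.09 (adjusted p = 0.127 by edgeR). For Tap2, Igtp and Irgm2 the estimate kept its sign without the library and shrank by over 1.5 times, and none passed. The member with the smallest p in that fit was Bst2, with an estimate below 0 (-0.36 ± 0.09, adjusted p = 0.0528 by edgeR). H2-K1 (-0.79 ± 0.26), H2-Ab1 (-0.54 ± 0.21) and Irf9 (-0.17 ± 0.07) also lay below 0 at an unadjusted p under 0.05. Their adjusted p was 0.164, 0.222 and 0.274 by edgeR.

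The other named members overlapped between the groups as well. Stat2 stood at 49.5, 51.5 and 57.3 CPM in sham and 52.4, 54.3 and 69.9 CPM in fracture+PDX (0.12 ± 0.07, adjusted p = 0.355 by edgeR), Oasl2 at 26.0, 30.8 and 35.4 CPM and 27.1, 35.5 and 48.1 CPM (0.22 ± 0.13, adjusted p = 0.415 by edgeR). Without male-2 these estimates were 0.05 ± 0.04 and 0.09 ± 0.08. Nlrc5 stood at 1.85, 2.21 and 3.11 CPM and 1.80, 3.29 and 14.4 CPM (0.94 ± 0.49, adjusted p = 0.354 by edgeR), and without male-2 its estimate was 0.37 ± 0.23. Among the class II genes the log2 fold change was 0.24 ± 0.18 for Cd74 and 0.36 ± 0.28 for H2-Aa, and 0.03 ± 0.06 and 0.15 ± 0.25 without male-2.

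Sex was compared over all 18 libraries with group in the model. Between female and male 62 of 21340 genes passed (0.291%) and 0 of 39 members did. At an unadjusted p under 0.05 the counts were 0 of 39 members and 10.1% of all genes. The type II median was -0.38 (0 of 11 estimates above 0) and the class I median -0.19 (0 of 8). Without fracture+PDX male-2, a male library, these were 0.08 and 0.09. The counts were then 0 of 39 members past the adjusted p and 5 of 39 at an unadjusted p under 0.05, beside 1970 of all 21606 genes of that fit. The 5 were Irf9, Bst2, Gbp6, Tap1 and Cd74, all with estimates on the female side.

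H2-K1 had the smallest p, at 26.4, 37.9 and 134 CPM in males and 18, 28.7 and 63.8 CPM in females (log2 fold change of female against male -0.74 ± 0.35, adjusted p = 0.504 by edgeR). H2-D1 stood at 222, 322 and 661 CPM in males and 114, 288 and 372 CPM in females (-0.38 ± 0.26, adjusted p = 0.691 by edgeR). Gbp7 stood at 11.1, 13.0 and 49.4 CPM and 9.90, 12.2 and 15.8 CPM, and Gbp3 at 6.25, 7.63 and 36.7 CPM and 5.5, 7.42 and 9.61 CPM (-0.38 ± 0.24 and -0.45 ± 0.30, adjusted p = 0.654 and 0.679 by edgeR). In all 4 the male maximum was fracture+PDX male-2, and the sexes overlapped. Without that library the estimates were -0.36 ± 0.22 for H2-K1, -0.21 ± 0.22 for H2-D1, -0.07 ± 0.08 for Gbp7 and -0.04 ± 0.10 for Gbp3.

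Isg15 ran from 2.59 to 7.65 CPM in males and 2.34 to 4.28 CPM in females, and Oas1a from 1.29 to 2.05 CPM and 1.20 to 2.98 CPM (-0.21 ± 0.18 and 0.25 ± 0.18, adjusted p = 0.774 and 0.698 by edgeR). Cd74 and H2-Eb1 had estimates on the female side, of 0.19 ± 0.14 and 0.63 ± 0.46 (adjusted p = 0.702 and 0.706 by edgeR). Without fracture+PDX male-2 the estimate of Cd74 was 0.33 ± 0.08 (adjusted p = 0.123 by edgeR), that of H2-Eb1 0.64 ± 0.50, that of Oas1a 0.29 ± 0.18 and that of Isg15 -0.02 ± 0.14. The interaction of sex with fracture called 0 of 20659 genes (0%), and 0 of 39 members, against 62 genes by DESeq2. At an unadjusted p under 0.05 edgeR counted 7.2% of all genes and 1 member, Irf1 (0.33 ± 0.15, adjusted p = 0.674). The other members with the smallest p per subgroup were Ifi44 (0.79 ± 0.46), Mx1 (-0.76 ± 0.52), Iigp1 (0.36 ± 0.44), H2-K1 (-0.81 ± 0.55), Nlrc5 (-0.33 ± 0.30), Ciita (-0.40 ± 0.37) and H2-Ab1 (-0.53 ± 0.50). That of sex with PDX called 1 of 20562 genes (0.00486%), which was no member. At an unadjusted p under 0.05 the counts were 0 of 39 members and 4.14% of all genes. The interaction estimates with the smallest p per subgroup were those of Nlrc5 (-1.65 ± 0.76), Psmb9 (-1.33 ± 0.74), Ifi44 (-1.04 ± 0.54), Bst2 (-0.66 ± 0.35), Gbp2 (-1.67 ± 0.92), Iigp1 (-2.24 ± 1.27), Cd74 (-0.44 ± 0.39) and Ciita (-0.45 ± 0.68). The adjusted p was 0.998 by edgeR for all 8. Without fracture+PDX male-2 the estimates were -0.62 for Nlrc5, -0.34 for Psmb9, -0.52 for Ifi44, -0.24 for Bst2, -0.29 for Gbp2, -0.44 for Iigp1, -0.03 for Cd74 and 0.26 for Ciita, so that of Ciita turned sign. The type II median was -1.39, and -0.03 without fracture+PDX male-2.

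Ligands and receptors were examined next, as the upstream part of the pathway. Of 10 interferon ligand genes listed, 3 were matched in the table and none passed the count filter. Ifng had 6 counts over the 18 libraries and 0 in fracture+PDX male-2, where a count of 0 allows up to 3 counts. Ifne had 13 counts over the 18 libraries and Ifnk 19. The receptors were all present, at mean levels of 10.9 FPKM for Ifnar1, 6.70 for Ifnar2, 10.2 for Ifngr1 and 14.5 for Ifngr2 (means of 18 libraries). In fracture+PDX male-2 the 9 receptor and kinase genes stood at 0.803-fold to 1.05-fold of the median of the other 17 libraries, and in 0 of 9 was it the highest library.

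Other genes of the pathway were compared with the members in lists that leave out the 39. Fracture+PDX male-2 was the highest of 18 libraries for 42 of these 105 genes, against 36 of 39 members. The median ratio to the median of the other 17 libraries, over the genes not near 0 there, was 5.34-fold for other type II genes, 1.42-fold for other type I genes, 1.51-fold for other class I genes and 1.07-fold for other class II genes. Fracture+PDX male-2 exceeded every other library by more than 2-fold in 7 of 13 other type II genes, 1 of 32 other type I genes, 1 of 15 other class I genes and 0 of 14 other class II genes. Gbp10 was 8.40 CPM there and at most 0.968 CPM elsewhere, Ifi47 was 25.8 against at most 3.502 CPM, and Tgtp2 was 27.1 against at most 4.37 CPM. Tgtp1 and Tgtp2, like several of the Gbp genes, are close copies whose reads could be split between them. Zbp1, a sensor of Z-form nucleic acid, was 5.41 CPM against at most 1.47 CPM, and the checkpoint ligand Cd274 was 20.6 against at most 9.14 CPM.

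In the comparisons of groups few of these other genes passed. Between fracture and sham 2 of 100 fell, against 1.83% of all genes, and 0 rose. Estimates lay below 0 for 76 of the 100 (median log2 fold change -0.07), where 50.7% of all genes lay above 0. They did so for 11 of 12 other type II genes (median -0.34) and 11 of 13 other class II genes (-0.30). For other type I genes it was 21 of 32 (-0.03) and for other class I genes 11 of 15 (-0.04). Icam1, an adhesion molecule of vessels and leukocytes, fell from 4.40, 5.45 and 5.76 CPM in sham to 3.53, 3.94 and 4.31 CPM in fracture (log2 fold change -0.42 ± 0.10, adjusted p = 0.0406 by edgeR), without overlap. Ifi30, a lysosomal thiol reductase of antigen processing, fell from 11.6, 12.9 and 13.7 CPM to 9.04, 10.3 and 11.6 CPM (-0.30 ± 0.07, adjusted p = 0.0418 by edgeR), with the ranges overlapping narrowly. Each call was lost in 11 of 22 alternative settings.

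Markers of other cell types moved with these 2 falls. The summed level of 12 macrophage markers was 204 to 255 CPM in sham and 158 to 207 CPM in fracture, and 2 of 12 (Csf1r and Adgre1) fell. That of 8 endothelial markers was 182 to 232 CPM and 164 to 189 CPM, and 2 of 8 (Cdh5 and Flt1) fell. The sum of 10 sensory neuron markers was 10679 to 11340 CPM in sham and 12094 to 12703 CPM in fracture, and 4 of 10 (Tubb3, Uchl1, Scn9a and Nefh) rose, where 1.09% of all genes rose and 1.83% fell. The part of these cells in the 2 falls was not tested. Between fracture+PDX and sham 1 of 100 fell, against 2.32% of all genes, and 1 of 100 rose, against 2.17%. Ifi30 fell (-0.33 ± 0.08, adjusted p = 0.0271 by edgeR) and H2-T23, a nonclassical class I gene, rose (0.72 ± 0.19, adjusted p = 0.0492 by edgeR). Without fracture+PDX male-2 the estimate of Ifi30 was nearly the same (-0.32 ± 0.08) and that of H2-T23 was 0.54 ± 0.17, but neither passed (adjusted p = 0.0614 and 0.115 by edgeR), and over all 22 alternative settings the call was lost in 6 for Ifi30 and in 16 for H2-T23. In the same fit without that library H2-Q7, a further nonclassical class I gene, fell (-1.29 ± 0.31, adjusted p = 0.0437 by edgeR), where with all libraries its estimate was -0.45 ± 0.61. Csf1r, Cdh5 and Flt1 fell between fracture+PDX and sham too, while the macrophage sum was 202 to 248 CPM in fracture+PDX and thus nearly the range of sham. The endothelial sum was 151 to 190 CPM there. Between fracture+PDX and fracture 0 of 99 passed.

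The summed markers of immune and other cells in fracture+PDX male-2 itself lay within or below the range of the other libraries. The summed level of 12 T and NK cell markers was 2.51 CPM there and 1.84 to 4.17 CPM in the other 17 libraries, and 1 of the 12 was at 0. That of 12 macrophage markers was 208 CPM against 158 to 255 CPM, although 5 of the 12 (Aif1, Cx3cr1, C1qb, C1qc and Fcgr1) were highest of 18 libraries there. The largest ratio to the next library among these was that of Fcgr1, at 2.49 CPM against at most 1.76 CPM. Fracture+PDX male-2 was the highest of 18 libraries for 5.89% of all genes. The part of these cells in the levels of the members was not tested. The sum of 8 dendritic cell markers was 38.7 CPM against 34.7 to 39.8 CPM, with 1 of 8 highest there, and that of 7 B cell markers 19.5 CPM against 16.4 to 54.4 CPM. The sums were the lowest of 18 libraries for 10 neutrophil markers (76.5 CPM against 80.1 to 452 CPM), 6 red blood cell markers (503 CPM against 780 to 2889 CPM) and 8 skeletal muscle markers (12.4 CPM against 15.7 to 1155 CPM). The 10 sensory neuron markers summed to 12055 CPM (10679 to 13113 CPM elsewhere) and the 6 satellite glial markers to 3674 CPM (2975 to 4237 CPM), as the labelled tissue should hold. Its depth of 78842944 counts lay within the range of the others.

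A few MHC genes also varied strongly between libraries of the same group. H2-Eb1 was 1.60 CPM in sham female-2, 2.50 CPM in fracture male-3 and 1.12 CPM in fracture+PDX male-1, and 5.47 to 21.2 CPM in the other 15 libraries. H2-D1 was 117 CPM in fracture female-3 and 114 CPM in fracture+PDX female-1, and at least 222 CPM in the other 16. The low libraries of the 2 genes were different ones, and each group with fracture held 1 of each. H2-Ea, a class II gene outside the set and named after its values were seen, ran from 0.337 to 17.4 CPM and was at most 1.15 CPM in 8 libraries and at least 6.00 CPM in the other 10. CD1 mice are outbred, and the MHC genes differ in sequence between mice, while the reads were aligned to the C57BL/6 build mm10. The part of such differences in these levels was not tested.

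The correlation of members across libraries was lower without fracture+PDX male-2 in each pair of subgroups given here. Over deviations from group means, the median Pearson r between 2 type II members was 0.93 (55 pairs, 18 libraries) and 0.60 without fracture+PDX male-2 (17 libraries). Between type II and class I members it was 0.86 (88 pairs) and 0.50, between 2 class I members 0.84 (28 pairs) and 0.55, and between type II and class II members 0.69 (55 pairs) and 0.48. Between 2 type I members it was 0.46 (105 pairs) and 0.22, and between type I and type II members 0.56 (165 pairs) and 0.17. The points share libraries and depth, so these values are a description.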

How the data were processed

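Total RNA of L3 to L5 DRG was made into poly(A)-selected, stranded libraries, and the authors deposited 1 table with raw counts and FPKM values per gene and library. The submitters' processing notes name cutadapt 1.10, FastQC, HISAT2 and StringTie and the build mm10, and which tool made which column was not given in the sources used here. In the deposited table the counts are whole numbers without normalization, and the FPKM values were scaled by the authors to transcript length and library size. The columns headed as controls were read as the sham group, the only group without a fracture. No column of the table was unmapped. Counting error at the depth of 63235040 to 82824942 counts is 1 limit on the precision of low genes.

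Counts were tested in R 4.3.3 with edgeR 4.0.16 (filterByExpr with a minimum count of 10 and a minimum total of 15, TMM factors, robust quasi-likelihood F test) on the 12 libraries of each comparison with sex as covariate, and on 18 libraries for sex. CPM values used TMM factors of all 18 libraries, and log2 CPM a prior count of 2. DESeq2 1.42.0 and limma 3.58.1 on log2 FPKM with pseudocounts of 1 and 0.1 were alternatives, with other factors, filters, models and each library left out. Scripts were tested on simulated data. The members, subgroups, lists and tests were chosen with earlier results of these data known. Named were, in each comparison and subgroup, the 2 members with the smallest p, all members and up to 3 other pathway genes per direction that passed, the 3 members per group with the largest share of a group sum in 1 library (mean of at least 1 CPM), and the highest and lowest member of each subgroup by FPKM. No 2 libraries were identical.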

Additional observations from a re-analysis of the deposited data

Results flagged for a closer look

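In each group of 6 libraries, the gap between the highest or lowest library and its neighbour was divided by the whole range of the group and set against Dixon's critical value for 6 libraries. Of 132 groups examined, over 39 members and 5 scores, 36 passed, and chance flags about 1 in 20 groups. Genes that move together are not independent in this respect. In fracture+PDX the high library was male-2 in all 24 members that passed. The ratios for type I members were 0.85 for Stat2, 0.74 for Irf9, 0.814 for Isg15, 0.71 for Mx2 and 0.829 for Bst2. For type II members, all 11 of which passed, they were 0.887 for Irf1, 0.937 for Gbp2, 0.942 for Gbp3, 0.879 for Gbp4, 0.944 for Gbp5, 0.894 for Gbp6, 0.9 for Gbp7, 0.932 for Igtp, 0.851 for Iigp1, 0.887 for Irgm1 and 0.953 for Irgm2. For class I members they were 0.779 for Psmb8, 0.828 for Psmb9, 0.896 for Tap1, 0.686 for B2m, 0.89 for H2-K1 and 0.817 for Nlrc5, and for class II members 0.768 for H2-Ab1 and 0.681 for Cd74. The scores of that library passed as well, at 0.797 for type II, 0.731 for class I and 0.775 for all members.

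In fracture, female-1 stood high for Irf1 (0.707), Gbp4 (0.797), Iigp1 (0.93) and Cd74 (0.828), male-1 for Stat2 (0.712) and female-3 for Oas1a (0.818). In sham, female-1 stood high for Psmb8 (0.628), for the type II score (0.77) and for the class I score (0.868).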

How the results depend on the processing

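The number of genes called moved with the tool. DESeq2 called 1476 genes for fracture against sham, 1581 for fracture+PDX against sham, 21 between fracture+PDX and fracture, 324 between the sexes, 62 for the interaction of sex with fracture and 9 for that of sex with PDX. Of the members it called 1, Bst2 between fracture and sham. Leaving out 1 library gave 213 to 710 genes between fracture and sham, 0 to 1 between fracture+PDX and fracture, 498 to 1008 between fracture+PDX and sham and 24 to 86 between the sexes. It gave 0 to 1 members between fracture+PDX and sham. The type II median ran from 0.0567 to 0.93 between fracture+PDX and fracture, and the type I median from -0.17 to 0.0939 between fracture+PDX and sham. Without fracture+PDX male-2, an alternative chosen after seeing the data for the interaction of sex with PDX, that interaction called 2 genes and had medians of -0.0251 for type II, -0.29 for class I and 0.34 for class II. The cause of these shifts was not tested.

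Of the 12 members followed by name through the alternatives between fracture+PDX and fracture, 4 changed sign under at least 1 of them. Over all 39 members, 35 estimates lay above 0 with all libraries and 18 without male-2. Leaving out 1 library gave -0.35 to 0.27 for H2-Ab1, -0.0423 to 1.26 for Iigp1, -0.27 to 0.42 for H2-K1 and -0.72 to 1.06 for Gbp6, the lowest in each case without male-2. With limma the estimate of H2-Ab1, fracture+PDX against fracture, was -0.00392 at a pseudocount of 1 and -0.0247 at 0.1, and that of Gbp6, fracture+PDX against fracture, was -0.000578 at 0.1. The replicate numbers did not pair the libraries, since the deviations of libraries with the same sex and number had a median correlation of 0.02 (-0.0705 to 0.126). With the replicate block 118 genes were called between fracture and sham and 486 between fracture+PDX and sham, H2-Ab1 was -0.0198 and Gbp6 was -0.14. Depth limits the ligands, which had at most 7 counts in a library.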

Other observations

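Genes outside the interferon and antigen presentation lists also stood more than 2-fold above every other library in fracture+PDX male-2. There were 17 of them, named here after their values were seen. The lists were not complete, so a gene outside them can still belong to the pathway, as Gbp2b does. Gm20721 was 3.73 CPM there and at most 0.250 CPM elsewhere, Gm12250 was 8.40 against at most 1.05 CPM, Gm43302 was 26.9 against at most 4.04 CPM and Gbp2b, a further guanylate-binding protein, was 3.10 against at most 0.586 CPM. Batf2, a transcription factor of activated macrophages, was 2.97 CPM against at most 1.13 CPM. The next largest number of genes that stood more than 2-fold above the rest in 1 library was 16, in sham female-1, and 0 of those were members.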
